A study of Homo sapiens with 18 samples.

Results

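Genes of the endoplasmic reticulum (ER) that fold, oxidise, retain and degrade secretory proteins, together with the sensors that watch over them, were followed on 18 Affymetrix Human Gene 2.0 ST arrays. The list held 44 genes, taken by symbol: chaperones and co-chaperones, disulfide isomerases and oxidases, stress sensors and their factors, genes of ER-associated degradation, and subunits of the translocon. Of these, 42 had a row among the 23786 probesets, each of which gathers the probes of 1 Entrez gene. PDIA3 and TXNDC5 were not analysed here. The arrays fell into 6 groups of 3: HSC-3 cells on ICG-001, HSC-3 cells on DMSO, CAL27 cells on ICG-001, CAL27 cells on DMSO, HSC-3 cells on CTNNB1 siRNA and HSC-3 cells on control siRNA. Both lines are established lines of human oral squamous cell carcinoma, grown with serum and with no engineered allele named in the labels. In the study HSC-3 stood for metastatic and CAL27 for non-metastatic disease, so that each phenotype rests on 1 line. ICG-001, a small molecule that keeps β-catenin off its coactivator CBP, was given at 10 μM and compared with 0.1% DMSO, and the cells were harvested after 48 to 64 h. The siRNAs were pools at 25 nM, one against CTNNB1, the gene of β-catenin, and a non-targeting one, given by reverse transfection, with harvest after 48 h. Each array came from its own well. Whether wells of a group were separate cultures is not stated, and p-values cover only the spread between wells.

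Secretory and membrane proteins enter the ER through the translocon and are folded there by HSPA5 (BiP), its J-domain partners and the lectin chaperones, while disulfide isomerases and the ERO1 oxidases form their disulfide bonds. Chains that fail to fold are led by EDEM proteins and OS9 to the ubiquitin ligase SYVN1 and its partner SEL1L, and are passed back to the cytosol for the proteasome. When unfolded protein builds up, 3 sensors respond: ERN1 (IRE1α), which splices XBP1 mRNA, ATF6, which is cut in the Golgi to give a transcription factor, and EIF2AK3 (PERK), which slows translation and raises ATF4. XBP1 and cleaved ATF6 are known to bind ER stress response elements in promoters of chaperone and degradation genes. Squamous epithelial cells are not professional secretory cells, but they keep this machinery for their adhesion and matrix proteins.

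The labels of the arrays were checked first. All 7 squamous epithelial markers that were named in the table lay above the array median on every array. Markers of other cells were mostly below it: 1 of 6 fibroblast markers, 2 of 5 immune markers, 1 of 4 endothelial markers and 2 of 5 markers of professional secretory cells were above the median on at least 1 array. Marker levels were summed as unlogged values and the sum given in log2, so the highest marker of a list weighs most. Some of these sums moved with the groups. In HSC-3 cells the squamous markers summed to 13.2 on ICG-001 against 13.5 to 13.6 on DMSO, the immune markers to 7.76 to 7.94 against 8.02 to 8.15, and the secretory markers to 8.40 to 8.45 against 8.52 to 8.63. The squamous markers did not fall as a set: limma called 2 of the 7 higher and 3 lower. KRT5 and KRT14, which weigh most, had log2 fold changes of -0.54 and -1.04, and DSG3 had 1.29. In CAL27 cells the endothelial markers summed to 7.48 to 7.70 on ICG-001 against 8.22 to 8.46 on DMSO. This sum rested on CDH5, with means of 7.39 on ICG-001 and 8.25 on DMSO. PECAM1, VWF and KDR lay below the median on all of these arrays. Between the lines on DMSO, the endothelial markers summed to 5.25 to 5.37 in HSC-3 and 8.22 to 8.46 in CAL27 cells, and the immune markers to 8.02 to 8.15 in HSC-3 and 9.02 to 9.24 in CAL27 cells. The immune sums rested on CD68, with means on DMSO of 7.925 in HSC-3 and 8.977 in CAL27 cells. PTPRC, CD3E and MS4A1 lay below the median on every array. The secretory sums rested on SDC1, with means in HSC-3 cells of 8.194 on ICG-001 and 8.32 on DMSO. The part of these markers in the results was not tested. CTNNB1 had log2 values of 7.35, 6.90 and 7.25 on CTNNB1 siRNA and of 10.22, 10.26 and 10.19 on control siRNA, and its log2 fold change was -3.06. Genes that exceeded the median of an array at least once in their normalization set were tested, which left 13493 genes on the 12 arrays with ICG-001 or DMSO and 12682 on the 6 arrays with siRNA. Of the members, 41 were tested in the first set and 40 in the second. A gene was called where the adjusted p of limma was no higher than 0.05, and called strictly where it was no higher than 0.01 with a change of 1.5-fold or more. DERL3, a derlin of the degradation pathway, lay below the median on every array, with values between 4.14 and 4.73, and CLGN, which encodes the calnexin homologue calmegin, was tested on the ICG-001 arrays only. All values are log2 values, and a log2 fold change is the difference of 2 group means. The arrays measured whole wells, so fewer cells of a type and less RNA per cell cannot be told apart.

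ER stress response elements stood in promoters of members that were higher, lower and not called on ICG-001, and 6 such promoters are shown for that reason, chosen with the values known. Promoters were RefSeq windows on GRCh38.p14 that run from 250 bases before to 50 bases after a transcription start, and 40 of the 42 measured members had at least 1. The ER stress response element (ERSE) was searched for as CCAAT and CCACG with 9 bases between them, and ERSE-II as ATTGG and CCACG with 1 base between them, on both strands. ERSE was found in 8 of 40 members (CALR, CANX, CRELD2, ERO1B, HSP90B1, HSPA5, PDIA6 and XBP1). Counted by promoter, it was in 10 of the 47 promoters of the members and in 27 of all 35116 promoters, a share of 0.0769%. ERSE-II was found in 3 members (HERPUD1, HYOU1 and SDF2L1), in 3 of the 47 promoters and in 0.0541% of all promoters. Of the members shown here, XBP1, HSPA5, HERPUD1 and ERO1B were higher on ICG-001 in HSC-3 cells, CALR was lower, and SDF2L1 had adjusted p = 0.514 from limma. Capitals mark the match, and all sequences run 5′ to 3′ on the strand of the gene.
XBP1 (chr22:28800520-28800819, minus strand): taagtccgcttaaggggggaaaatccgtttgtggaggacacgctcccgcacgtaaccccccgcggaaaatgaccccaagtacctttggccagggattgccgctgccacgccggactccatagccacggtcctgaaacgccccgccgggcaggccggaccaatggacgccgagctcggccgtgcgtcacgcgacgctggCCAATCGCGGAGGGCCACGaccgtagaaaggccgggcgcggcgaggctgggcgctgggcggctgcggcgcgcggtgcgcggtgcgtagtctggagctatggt
HSPA5 (chr9:125241294-125241593, minus strand): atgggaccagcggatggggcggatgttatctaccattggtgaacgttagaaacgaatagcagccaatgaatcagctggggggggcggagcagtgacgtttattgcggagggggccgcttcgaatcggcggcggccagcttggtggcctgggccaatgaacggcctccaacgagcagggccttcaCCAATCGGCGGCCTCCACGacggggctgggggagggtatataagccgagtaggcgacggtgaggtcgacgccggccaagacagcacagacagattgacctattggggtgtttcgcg
HERPUD1 (chr16:56931892-56932191, plus strand): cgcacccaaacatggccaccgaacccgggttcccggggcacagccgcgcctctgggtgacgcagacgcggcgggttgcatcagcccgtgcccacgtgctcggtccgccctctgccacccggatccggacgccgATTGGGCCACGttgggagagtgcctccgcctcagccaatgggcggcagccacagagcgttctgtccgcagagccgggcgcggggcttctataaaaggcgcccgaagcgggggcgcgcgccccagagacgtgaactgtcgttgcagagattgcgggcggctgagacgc
ERO1B (chr1:236281909-236282208, minus strand): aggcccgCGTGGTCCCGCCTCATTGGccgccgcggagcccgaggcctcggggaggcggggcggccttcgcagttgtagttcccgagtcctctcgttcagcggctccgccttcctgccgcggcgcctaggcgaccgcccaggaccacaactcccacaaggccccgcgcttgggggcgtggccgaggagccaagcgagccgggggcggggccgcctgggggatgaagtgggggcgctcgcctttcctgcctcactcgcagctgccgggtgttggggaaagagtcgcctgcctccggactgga
CALR (chr19:12938359-12938658, plus strand): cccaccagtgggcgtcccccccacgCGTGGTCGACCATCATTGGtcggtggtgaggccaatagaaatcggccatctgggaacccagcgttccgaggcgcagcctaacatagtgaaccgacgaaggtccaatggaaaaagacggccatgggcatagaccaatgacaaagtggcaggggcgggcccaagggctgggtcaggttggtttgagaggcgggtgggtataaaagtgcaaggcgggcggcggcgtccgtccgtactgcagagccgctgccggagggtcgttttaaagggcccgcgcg
SDF2L1 (chr22:21642052-21642351, plus strand): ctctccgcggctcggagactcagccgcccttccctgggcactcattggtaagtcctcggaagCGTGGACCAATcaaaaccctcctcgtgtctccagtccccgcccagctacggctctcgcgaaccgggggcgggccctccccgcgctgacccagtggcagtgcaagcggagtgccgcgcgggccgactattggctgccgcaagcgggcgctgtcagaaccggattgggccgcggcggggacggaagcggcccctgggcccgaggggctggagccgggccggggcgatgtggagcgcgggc

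The matches lay at different distances from the start. That of XBP1 spanned the bases from -52 to -34 and that of HSPA5 from -66 to -48, both reading CCAAT first. Those of ERO1B, from -243 to -225, and of CALR, from -225 to -207, read in the other orientation. The 2 ERSE matches of HSP90B1 lay at -194 to -176 and at -89 to -71, and HYOU1 had 2 ERSE-II matches, at -185 to -175 and at -79 to -69. ERSE-II of HERPUD1 lay at -117 to -107 and that of SDF2L1 at -188 to -178. The UPR element, searched as TGACG followed directly by TGG, was in DNAJC10, HYOU1 and TXNDC11 and in 0.729% of all promoters; in HYOU1 it overlapped an ERSE-II. CCACG alone, which both ERSE forms contain, was in 27 of 40 members, in 31 of their 47 promoters and in 38.1% of all promoters. CCAAT alone was in 31 of 40 members, in 35 of their 47 promoters and in 34.6% of all promoters. The amino acid response element, TGATG, any base, AA and any base, was in 1 member, HERPUD1, and in 3.61% of all promoters. The map of these matches sets the promoter of each of 13 members beside its log2 fold change in both lines. CANX had an ERSE in several promoters, and the map draws the one in which it spans the bases from -9 to 9. In the others it lay at -151 to -133 and at -189 to -171. In HSC-3 cells the 11 members with an ERSE or ERSE-II had a median log2 fold change of 0.22. The 29 without one had a median of 0.52, while in CAL27 cells the medians were -0.15 and 0.05. The excess of the HSC-3 response over the CAL27 response had the opposite order, with medians of 0.57 and 0.37. For CCACG alone, the medians in HSC-3 cells were 0.565 with it and 0.31 without. In CAL27 cells they were -0.02 and 0.09. Of the 11, CALR, CANX, CRELD2, HSP90B1, HSPA5, HYOU1 and SDF2L1 are chaperones, the role with the lowest median in HSC-3 cells. The part of role in these medians was not tested. These medians are a description of letters in a window, and no factor was measured at these sites.

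**Figure D1:**
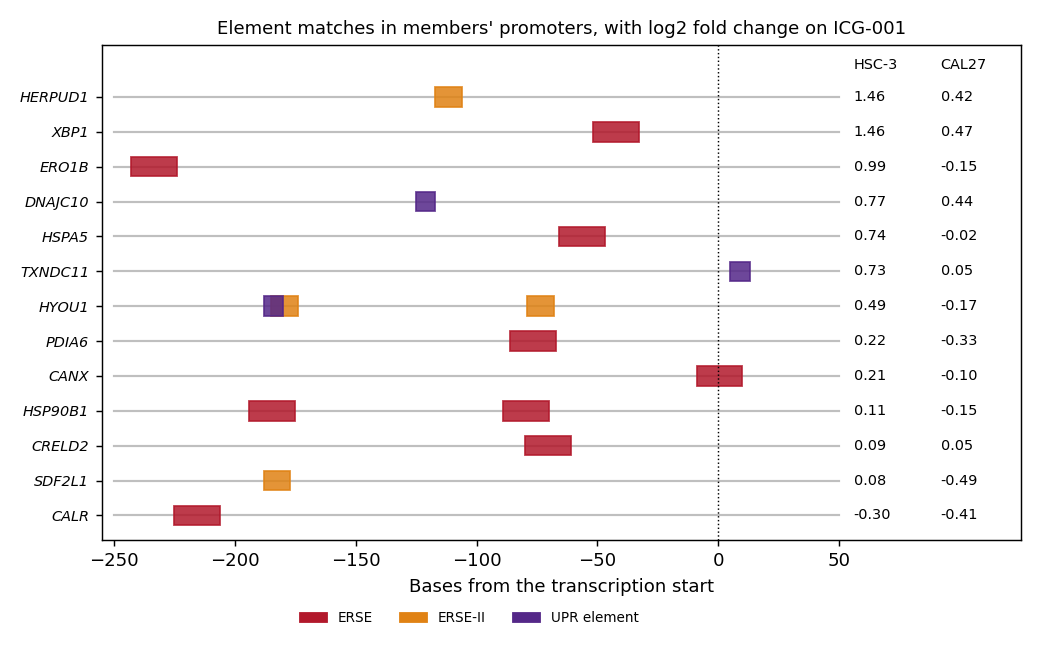
Promoters of the 13 members with an ERSE (red), ERSE-II (orange) or UPR element (purple) match, drawn by distance in bases from the transcription start, in the order of their log2 fold change on ICG-001 in HSC-3 cells, with the log2 fold change in HSC-3 and CAL27 cells at the right. Members with a match span the range from HERPUD1 at 1.46 to CALR at -0.30 in HSC-3 cells. CANX had a match in several promoters, of which only that with the match across the start is drawn.

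Most of these genes rose on ICG-001 in HSC-3 cells, among them all of the sensors and stress factors and 7 of 14 chaperones. Of 41 members, limma called 29 higher and 1 lower on ICG-001, where 26.7% of all tested genes were higher and 26.1% lower. By the strict call 16 members were higher and 0 lower, where 9.17% of all genes were higher and 8.12% lower. The median log2 fold change of the 41 members was 0.40, beside 0.000811 over all tested genes. A positive one was seen in 38 of 41 members, a share that was not counted over all tested genes. By role, 5 of 5 sensors and stress factors (median 0.82), 9 of 11 degradation genes (0.72), 2 of 2 translocon genes (0.49), 6 of 9 disulfide enzymes (0.39) and 7 of 14 chaperones (0.16) were higher; differences between roles were not tested. CALR, a chaperone, was the member that was lower.

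Among the sensors, XBP1, the transcription factor activated by IRE1α, had values of 9.69, 9.67 and 9.53 on ICG-001 and of 8.14, 8.19 and 8.19 on DMSO in HSC-3 cells. Every ICG-001 array lay more than 1 log2 unit above every DMSO array, and XBP1 was 2.75-fold higher (log2 fold change 1.46 with standard error 0.06, adjusted p = 1.46e-05 from limma). The array gives 1 value per gene, so spliced and unspliced XBP1 were not told apart. ERN1, which encodes IRE1α itself, measured 6.38, 6.64 and 6.52 on ICG-001 and 5.23, 5.24 and 5.07 on DMSO. Its arrays did not overlap either, and it was 2.51-fold higher (log2 fold change 1.33, adjusted p = 4.43e-05 from limma). WFS1, the gene of wolframin, a membrane protein of the ER, was 1.77-fold higher, and ATF6 1.57-fold. EIF2AK3, which encodes PERK, rose least, 1.29-fold (log2 fold change 0.37, adjusted p = 0.0026 from limma).

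Of the degradation genes, 9 of 11 rose, while DERL2 and SELENOK did not pass and DERL3 was not tested. HERPUD1, a membrane protein that serves the SYVN1 complex, measured 9.09, 9.24 and 9.16 on ICG-001 against 7.66, 7.64 and 7.80 on DMSO. The groups lay far apart, at a log2 fold change of 1.46 (standard error 0.07, adjusted p = 1.73e-05 from limma). SEL1L, the adaptor of the ligase, had 10.03, 10.19 and 10.22 on ICG-001 and 9.03, 9.11 and 9.06 on DMSO, and was 2.12-fold higher (adjusted p = 3.98e-05 from limma). The ligase SYVN1 measured 9.35, 9.30 and 9.33 on ICG-001 and 8.48, 8.43 and 8.47 on DMSO, 1.82-fold higher with adjusted p = 3.4e-05 from limma. For SEL1L and SYVN1, too, the lowest ICG-001 array lay above the highest DMSO array. EDEM1, EDEM2 and EDEM3, which trim and hand over misfolded glycoproteins, were 1.75-fold, 1.65-fold and 1.48-fold higher, and OS9, a lectin that delivers them to SEL1L, 1.70-fold. SELENOS, which anchors the extracting ATPase at the membrane, was 1.46-fold higher and DERL1 1.21-fold. DERL2 (log2 fold change 0.17, adjusted p = 0.0511 from limma) and SELENOK (0.15, adjusted p = 0.444) did not pass. SEC61A1, the pore of the translocon, had 10.88, 11.00 and 10.94 on ICG-001 and 10.21, 10.35 and 10.33 on DMSO, without overlap and 1.56-fold higher. SEC61B, its small subunit, was 1.26-fold higher.

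The chaperones were divided. DNAJB9 (ERdj4), a J-domain partner of BiP, had the largest log2 fold change of all members in HSC-3 cells, with values of 6.89, 6.83 and 6.79 on ICG-001 against 5.32, 5.15 and 5.34 on DMSO. Its groups lay more than 1 log2 unit apart, and it was 2.97-fold higher (log2 fold change 1.57, standard error 0.07, adjusted p = 1.46e-05 from limma). HSPA5 (BiP), the central chaperone of the ER, had values of 11.62, 11.73 and 11.77 on ICG-001 and of 11.00, 10.95 and 10.93 on DMSO. It was 1.67-fold higher, with no overlap. DNAJC3, another J-domain partner, was 1.43-fold higher, and the exchange factors of BiP, HYOU1 and SIL1, 1.41-fold and 1.24-fold, though SIL1 was not called under 7 of 14 alternatives. UGGT1, which marks misfolded glycoproteins for another round of folding, was 1.22-fold higher and the lectin chaperone CANX 1.15-fold. CALR, the soluble counterpart of CANX, measured 11.07, 11.06 and 10.98 on ICG-001 against 11.37, 11.33 and 11.29 on DMSO. All 3 ICG-001 arrays lay below all 3 DMSO arrays, at a log2 fold change of -0.30 (standard error 0.06, adjusted p = 0.00419 from limma). HSP90B1, CRELD2, CLGN, DNAJB11, SDF2L1 and MANF did not pass the test. Their log2 fold changes lay between 0.02 for MANF, a stress-induced protein that binds BiP (95% confidence interval -0.16 to 0.20), and 0.11 for HSP90B1, the ER form of HSP90 (-0.02 to 0.25).

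Of the disulfide enzymes, the oxidase ERO1B had the largest rise, with 5.38, 5.40 and 5.49 on ICG-001 and 4.37, 4.46 and 4.47 on DMSO in HSC-3 cells. It did not overlap between groups, and its log2 fold change was 0.99 (1.99-fold, adjusted p = 3.8e-05 from limma). Its DMSO arrays all lay below the array median, so the size of this fold rests on low signals. Its paralogue ERO1A changed by -0.00482 on the log2 scale, with a 95% confidence interval of -0.13 to 0.12. DNAJC10 (ERdj5), a reductase that opens disulfides before degradation, was 1.70-fold higher and TXNDC11 1.66-fold. ERP44, which holds ERO1 in the early secretory pathway, was 1.31-fold higher, P4HB, the founding protein disulfide isomerase, 1.32-fold, and PDIA6 1.16-fold. PDIA4 (0.13, adjusted p = 0.111 from limma) and PDIA5 (-0.10, adjusted p = 0.389) did not pass. PDIA5 measured 5.48, 5.44 and 5.38 on ICG-001 and 5.45, 5.71 and 5.43 on DMSO, with overlapping groups. The plot of fold changes by role shows that in HSC-3 cells each role but the sensors and the translocon held members on both sides of the threshold.

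**Figure D2:**
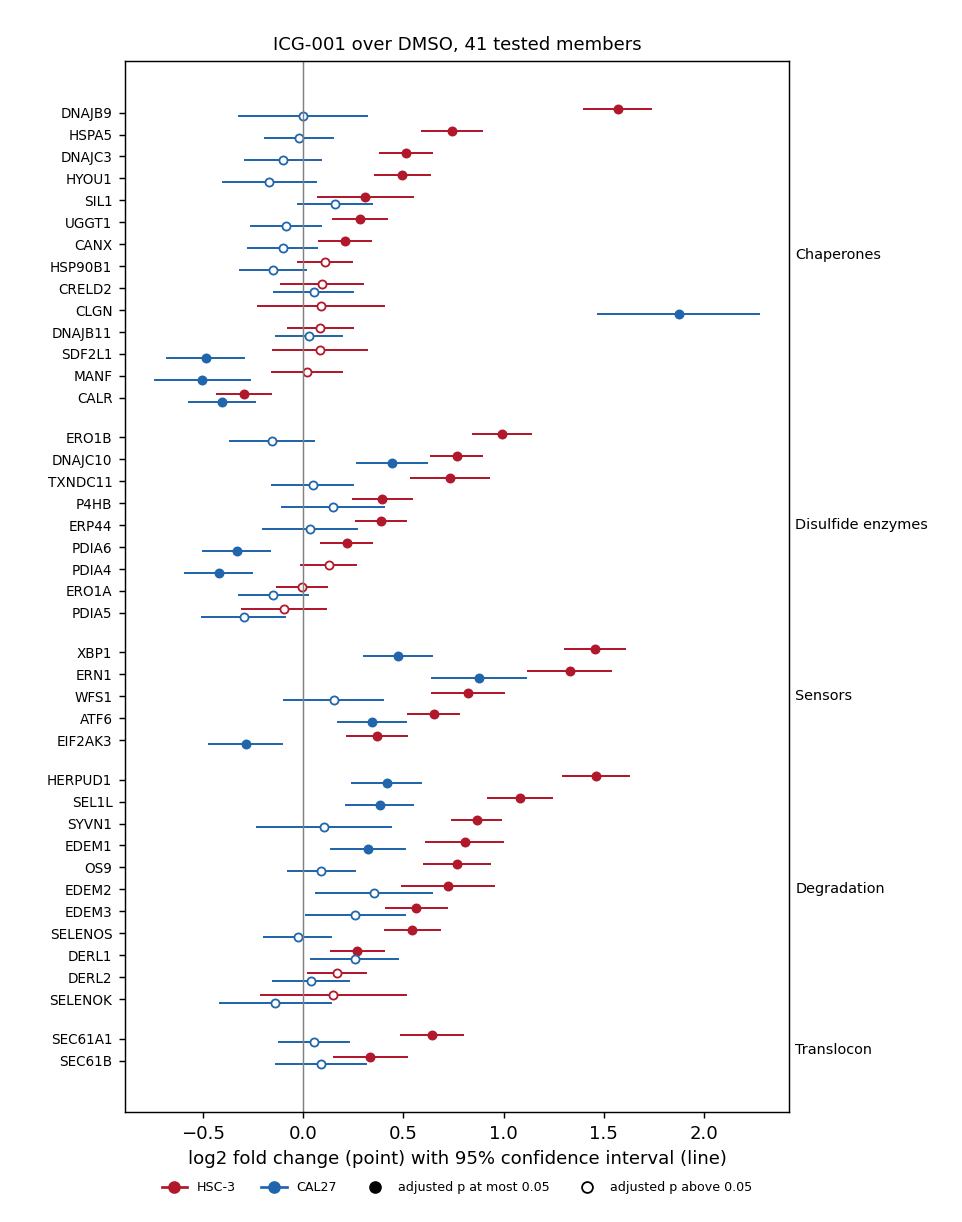
Log2 fold change on ICG-001 over DMSO (point) with its 95% confidence interval (line) for the 41 tested members, by role, in HSC-3 cells (red) and CAL27 cells (blue), with 3 arrays per group; filled points were called by limma. In HSC-3 cells 29 members were higher and 1 lower, in CAL27 cells 8 were higher and 6 lower.

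In CAL27 cells, a smaller group rose and a set of chaperones and isomerases fell. Of 41 members, limma called 8 higher and 6 lower on ICG-001, where 6.91% of all tested genes were higher and 7.4% lower. By the strict call 2 members were higher and 0 lower, beside 1.76% and 1.95% of all genes. CLGN, counted among both the 8 and the 2, was tested only because 1 ICG-001 array of CAL27 cells exceeded the median. The median log2 fold change of the members was 0.04 and that of all tested genes 0.00435. Without ICG-001 replicate 3 the count of higher members was 4, and without DMSO replicate 2 it was 5, while the count of lower members was 3 without ICG-001 replicate 1 and 3 without ICG-001 replicate 2. The 8 higher members were 3 of 5 sensors and stress factors, 3 of 11 degradation genes, 1 of 9 disulfide enzymes and 1 of 14 chaperones.

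ERN1 had 6.28, 6.64 and 6.53 on ICG-001 and 5.58, 5.63 and 5.62 on DMSO in CAL27 cells, where it was 1.84-fold higher (log2 fold change 0.88, standard error 0.10, adjusted p = 0.00169 from limma). XBP1 measured 10.15, 10.16 and 10.16 on ICG-001 and 9.62, 9.69 and 9.75 on DMSO, 1.39-fold higher with adjusted p = 0.00562 from limma. For both, all ICG-001 arrays lay above all DMSO arrays. ATF6 was 1.27-fold higher, a call lost without either of DMSO replicates 2 and 3 or when any 1 ICG-001 replicate was left out. DNAJC10 had 10.18, 10.12 and 10.15 on ICG-001 against 9.80, 9.68 and 9.66 on DMSO and was higher by 0.44 (adjusted p = 0.00876 from limma). HERPUD1, with 8.69, 8.68 and 8.76 on ICG-001 and 8.22, 8.32 and 8.34 on DMSO, was 1.33-fold higher. SEL1L, with 9.39, 9.38 and 9.41 on ICG-001 and 9.07, 9.02 and 8.95 on DMSO, was 1.30-fold higher. Neither overlapped, but without ICG-001 replicate 3 the adjusted p of HERPUD1 was 0.0533 and that of SEL1L 0.0613 from limma. EDEM1 was 1.25-fold higher, a call lost when any 1 of the 6 arrays was left out.

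CLGN, known for its role in testis, was the member with the largest fold change in CAL27 cells. It measured 5.20, 4.69 and 4.69 on ICG-001 and 3.10, 2.69 and 3.17 on DMSO, a log2 fold change of 1.87 (standard error 0.17, adjusted p = 0.000697 from limma). All of its other arrays lay below the median, and it entered the test through the array of CAL27 ICG-001 replicate 1, so that it had to be high there to be tested at all. With a filter of 3 arrays it was not tested, and 7 members were higher. In HSC-3 cells it had 2.82, 2.91 and 2.94 on ICG-001 and 2.49, 3.02 and 2.89 on DMSO, with overlap.

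The 6 members that fell in CAL27 cells were 3 chaperones, 2 isomerases and 1 sensor. SDF2L1, a partner of the J-domain co-chaperones, had 5.90, 5.87 and 5.82 on ICG-001 and 6.35, 6.46 and 6.24 on DMSO (log2 fold change -0.49, standard error 0.08, adjusted p = 0.00858 from limma). PDIA4, a large isomerase found with BiP, had 8.72, 8.81 and 8.79 on ICG-001 and 9.19, 9.24 and 9.16 on DMSO (log2 fold change -0.42, adjusted p = 0.00874 from limma). CALR had 11.07, 11.05 and 11.03 on ICG-001 and 11.51, 11.44 and 11.43 on DMSO (log2 fold change -0.41, adjusted p = 0.00948 from limma). In each of these 3 genes every ICG-001 array lay below every DMSO array. MANF measured 6.49, 6.65 and 6.79 on ICG-001 and 7.23, 7.02 and 7.19 on DMSO (log2 fold change -0.50, adjusted p = 0.0169 from limma), again without overlap. PDIA6, the other isomerase, had 9.52, 9.49 and 9.47 on ICG-001 and 9.88, 9.77 and 9.83 on DMSO (log2 fold change -0.33, adjusted p = 0.0221 from limma). EIF2AK3 had 6.82, 6.94 and 7.01 on ICG-001 and 7.19, 7.20 and 7.24 on DMSO (log2 fold change -0.29, adjusted p = 0.0478 from limma). These 2 were the weakest calls, although their arrays did not overlap: leaving out any 1 array gave adjusted p up to 0.0902 for PDIA6 and 0.135 for EIF2AK3 from limma, and EIF2AK3 lost its call whichever of the 6 was left out. HSPA5 had 11.16, 11.08 and 11.11 on ICG-001 and 11.21, 11.10 and 11.12 on DMSO in these cells, which overlapped at a log2 fold change of -0.02 (95% interval -0.19 to 0.15). DNAJB9, which led in HSC-3 cells, had 5.76, 5.66 and 5.57 on ICG-001 and 5.95, 5.66 and 5.40 on DMSO, with overlap and a wide interval (-0.32 to 0.32). SELENOK, with the lowest log2 fold change of the degradation genes, had 6.73, 6.39 and 6.28 on ICG-001 and 6.65, 6.63 and 6.55 on DMSO (-0.14, adjusted p = 0.465 from limma). Its groups overlapped, as did those of SEC61B, which had 9.19, 9.09 and 9.01 on ICG-001 and 8.84, 9.06 and 9.12 on DMSO. None of the translocon genes was called in CAL27 cells.

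**Figure D3:**
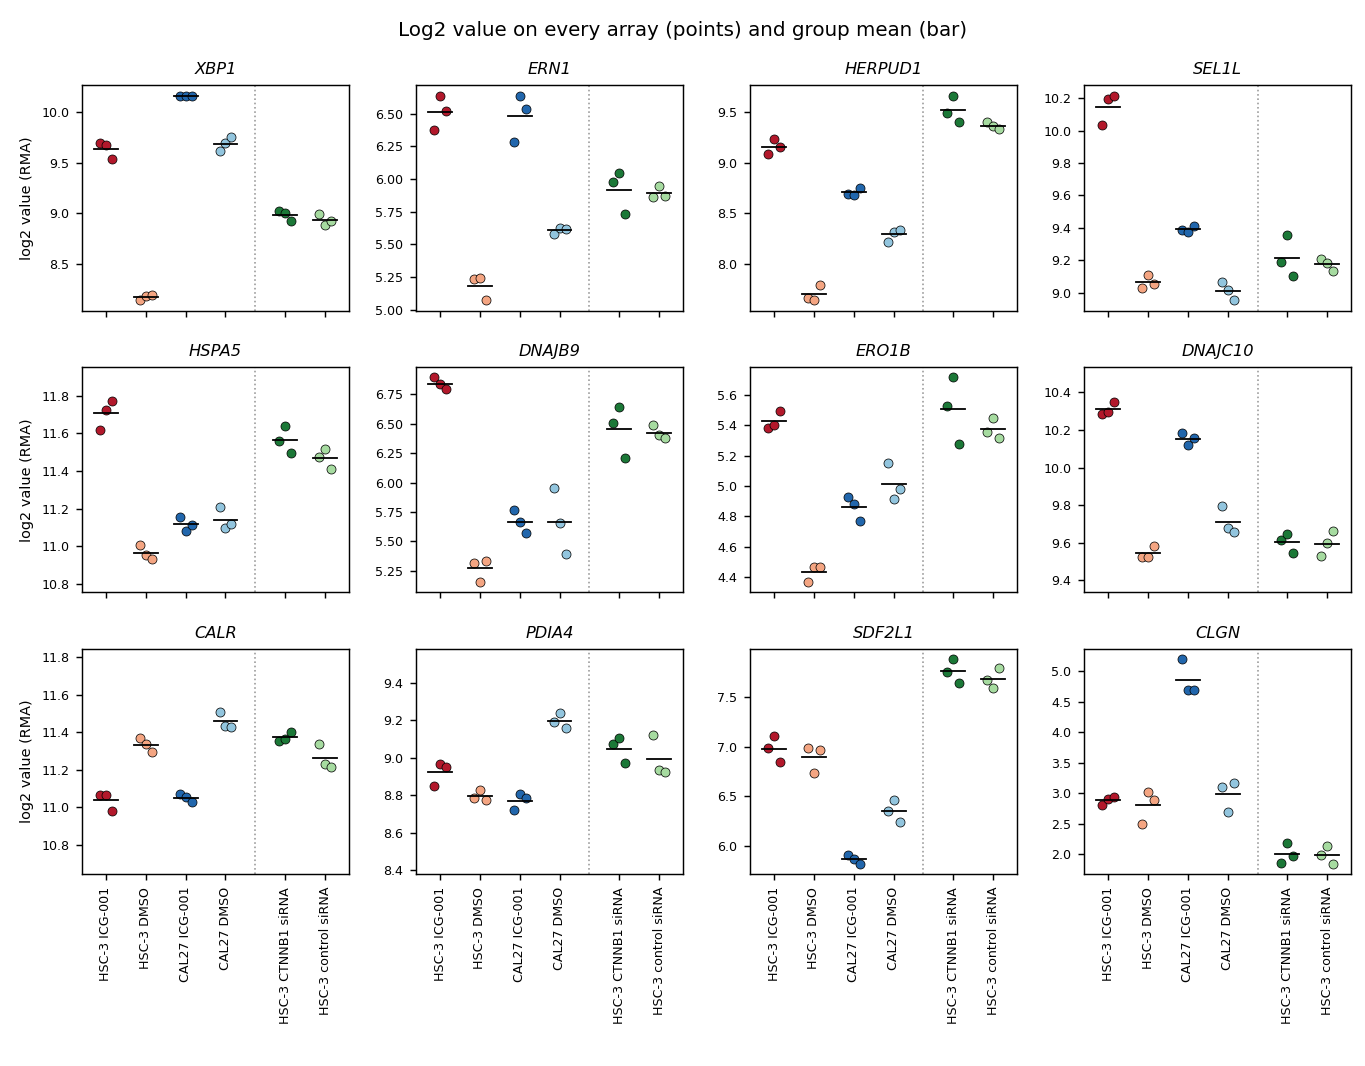
Log2 value of 12 members on every array (points, 3 per group) with the group mean (bar), for ICG-001 and DMSO in HSC-3 and CAL27 cells and, right of the dotted line, CTNNB1 siRNA and control siRNA in HSC-3 cells, which were normalized apart so that levels are not comparable across the line. XBP1, ERN1, HERPUD1, SEL1L and DNAJC10 were higher on ICG-001 in both lines, HSPA5, DNAJB9 and ERO1B in HSC-3 cells at log2 fold changes of 0.74, 1.57 and 0.99, and CALR was lower in both lines.

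Set side by side, 7 members were higher on ICG-001 in both lines, which is 7 of the 29 higher in HSC-3 and 7 of the 8 higher in CAL27 cells: XBP1, ERN1, ATF6, HERPUD1, SEL1L, EDEM1 and DNAJC10. Of all 13493 tested genes, 4.41% were higher in both lines. CALR was lower in both, as were 4.18% of all tested genes. PDIA6 and EIF2AK3 were higher in HSC-3 and lower in CAL27 cells, as were 0.949% of all tested genes. The difference itself was then tested, as the response of HSC-3 minus the response of CAL27 cells in 1 model over the 12 arrays. It was positive for 40 of 41 members, a share that was not counted over all tested genes. Here limma called 27 members with a higher and 1 with a lower difference, where 15.6% of all tested genes had a higher and 15.2% a lower one. By the strict call the counts were 14 and 1, beside 6.83% and 5.4% of all genes. The median difference was 0.45 over the members and -0.01 over all tested genes.

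DNAJB9 had the largest difference, 1.57 on the log2 scale (standard error 0.17, adjusted p = 4.59e-05 from limma), followed by ERO1B with 1.15 (adjusted p = 1.91e-05), HERPUD1 with 1.04 (adjusted p = 1.54e-05) and XBP1 with 0.99 (adjusted p = 1.4e-05). The difference of HSPA5 was 0.77 (adjusted p = 8.49e-05 from limma), that of SEL1L 0.70, and that of SEC61A1 0.59. In CAL27 cells ERO1B had 4.93, 4.88 and 4.77 on ICG-001 and 5.15, 4.91 and 4.98 on DMSO, and SEC61A1 had 10.59, 10.59 and 10.55 on ICG-001 and 10.44, 10.54 and 10.59 on DMSO. Both overlapped there, while in HSC-3 cells neither did. All 5 sensors and stress factors had a higher response in HSC-3 cells, from 0.31 for ATF6 to 0.99 for XBP1. ERN1 differed by 0.45 (95% confidence interval 0.15 to 0.75), a call that was lost under 6 of 19 alternatives. PDIA6 and PDIA4 each differed by 0.55. CLGN went the other way, with a difference of -1.79 (standard error 0.24, adjusted p = 0.000247 from limma), subject to the way it entered the test. For CALR the difference was 0.11 (-0.06 to 0.28, adjusted p = 0.324 from limma) and for DERL1 0.01 (-0.22 to 0.25, adjusted p = 0.937).

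On DMSO alone, the members differed between the lines about as often as genes in general did, and XBP1 had the largest difference among them. Of 41 members, limma called 9 higher and 16 lower in HSC-3 than in CAL27 cells, where 31.7% of all tested genes were higher and 29.9% lower. The median log2 difference was -0.17 for the members and 0.02 for all tested genes. XBP1 was 8.14 to 8.19 in HSC-3 and 9.62 to 9.75 in CAL27 cells, a difference of -1.51 (standard error 0.07, adjusted p = 2.09e-06 from limma). With ICG-001 the HSC-3 arrays read 9.53 to 9.69, a range that overlapped that of CAL27 cells on DMSO. ERN1, HERPUD1, ERO1B and DNAJB9, which rose in HSC-3 cells, were likewise lower there on DMSO, with differences of -0.43, -0.59, -0.58 and -0.40. DNAJB9 was not called under 6 of 14 alternatives. The HSC-3 DMSO arrays enter both comparisons, so a rise there and a low level on DMSO are not independent. ATF6, WFS1, HYOU1 and P4HB also rose in HSC-3 cells but were higher there on DMSO. HERPUD1 read 7.66, 7.64 and 7.80 in HSC-3 and 8.22, 8.32 and 8.34 in CAL27 cells, and ERO1B 4.37, 4.46 and 4.47 in HSC-3 and 5.15, 4.91 and 4.98 in CAL27 cells. Neither overlapped between the lines. Of the disulfide enzymes, 7 of 9 were lower in HSC-3 cells. PDIA5 measured 5.45, 5.71 and 5.43 in HSC-3 and 6.50, 6.23 and 6.36 in CAL27 cells (-0.84, adjusted p = 0.000334 from limma). ERO1A had 9.49, 9.56 and 9.49 in HSC-3 and 10.19, 10.10 and 10.23 in CAL27 cells (-0.66, adjusted p = 0.000123 from limma). P4HB, with 11.18, 11.10 and 11.09 in HSC-3 and 10.51, 10.79 and 10.91 in CAL27 cells, was the one disulfide enzyme called higher, by 0.39 (adjusted p = 0.0154 from limma), though without HSC-3 DMSO replicate 1 its adjusted p was 0.052.

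Members that were higher in HSC-3 cells on DMSO came from several roles. MANF measured 7.93, 8.03 and 8.00 in HSC-3 and 7.23, 7.02 and 7.19 in CAL27 cells (0.84, adjusted p = 8.16e-05 from limma). DERL2 had 9.17, 9.05 and 9.05 in HSC-3 and 8.35, 8.46 and 8.29 in CAL27 cells (0.72, adjusted p = 0.000138 from limma). For both, the lines lay more than 0.5 log2 units apart. ATF6 read 8.98, 8.89 and 8.95 in HSC-3 and 8.56, 8.52 and 8.46 in CAL27 cells (0.43, adjusted p = 0.00112 from limma), so that this sensor differed in the opposite direction from XBP1. WFS1 was likewise higher, with 6.80, 6.98 and 7.00 in HSC-3 and 6.29, 6.32 and 6.57 in CAL27 cells (0.53). HYOU1 had 8.83, 8.78 and 8.82 in HSC-3 and 8.18, 8.41 and 8.43 in CAL27 cells (0.47), and DNAJB11 had 9.89, 9.78 and 9.77 in HSC-3 and 9.40, 9.37 and 9.37 in CAL27 cells (0.43). SELENOK, a selenoprotein of the ER membrane, had 6.94, 7.17 and 7.12 in HSC-3 and 6.65, 6.63 and 6.55 in CAL27 cells (0.46). In none of these genes did the lines overlap. SDF2L1 was higher by 0.54. UGGT1 was lower, with 8.95, 9.03 and 8.99 in HSC-3 and 9.59, 9.51 and 9.53 in CAL27 cells (-0.55, adjusted p = 0.000238 from limma). SEC61B had 8.80, 8.74 and 8.73 in HSC-3 and 8.84, 9.06 and 9.12 in CAL27 cells (-0.25, adjusted p = 0.04 from limma), a call that was lost under 8 of 14 alternatives, 0.0715 being the adjusted p with a replicate block. SEL1L, SYVN1, OS9 and DERL1 did not pass the test between the lines on DMSO, with differences between -0.04 for OS9 and 0.21 for SYVN1.

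Knockdown of CTNNB1 in HSC-3 cells, which asks what lowering β-catenin itself does, moved few genes of any kind past the test, and none of the members. Of 40 tested members, limma called 0 higher and 0 lower on CTNNB1 siRNA, where 0.00789% of all 12682 tested genes were higher and 0.0867% lower. With shares this small, a count of 0 does not set the members apart from genes in general. The counts were also 0 with a trend and robust prior. At an unadjusted p under 0.05 there were 2 members, beside 12.7% of all tested genes. These were PDIA5 (log2 fold change 0.21, adjusted p = 0.302 from limma), with 5.35, 5.29 and 5.22 on CTNNB1 siRNA and 5.03, 5.19 and 5.01 on control siRNA, and MANF (0.18, adjusted p = 0.328), with 8.51, 8.54 and 8.42 on CTNNB1 siRNA and 8.25, 8.28 and 8.40 on control siRNA. The arrays of both did not overlap between the groups. For XBP1 the groups overlapped, and its log2 fold change was 0.05, with a 95% confidence interval of -0.08 to 0.18. HERPUD1 had 9.49, 9.67 and 9.40 on CTNNB1 siRNA and 9.40, 9.37 and 9.33 on control siRNA (0.15, -0.03 to 0.33), which touched between groups. ATF6 had the lowest log2 fold change, -0.12 (adjusted p = 0.442 from limma), with 9.02, 9.08 and 8.95 on CTNNB1 siRNA and 9.15, 9.17 and 9.10 on control siRNA. SELENOK had 7.62, 7.40 and 7.25 on CTNNB1 siRNA and 7.48, 7.44 and 7.65 on control siRNA (-0.10). WFS1 had 7.07, 7.12 and 7.00 on CTNNB1 siRNA and 6.97, 7.05 and 6.95 on control siRNA (0.08). The groups of SELENOK and WFS1 overlapped and those of ATF6 did not. DNAJC3 had 8.92, 9.02 and 8.84 on CTNNB1 siRNA and 8.99, 8.99 and 8.88 on control siRNA (-0.03). SEC61A1 had 10.53, 10.63 and 10.55 on CTNNB1 siRNA and 10.59, 10.57 and 10.56 on control siRNA (-0.00393), and SEC61B 9.14, 9.04 and 9.01 on CTNNB1 siRNA and 9.03, 8.90 and 9.06 on control siRNA (0.07). These 3 overlapped as well. The median log2 fold change was 0.0497 over the 40 members and 0.00775 over all tested genes. Of the members, 34 had a positive one, though limma called 0 of them. How many of all tested genes had a positive one was not counted. The 95% confidence intervals of all 40 members ran from -0.35, for SELENOK, to 0.39, for ERO1B. In the ICG-001 comparison of HSC-3 cells, DNAJB9, HERPUD1, XBP1, ERN1 and SEL1L had log2 fold changes over 1, outside these intervals, but the agents, the times and the normalization differ and no test was made between the experiments.

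**Figure D4:**
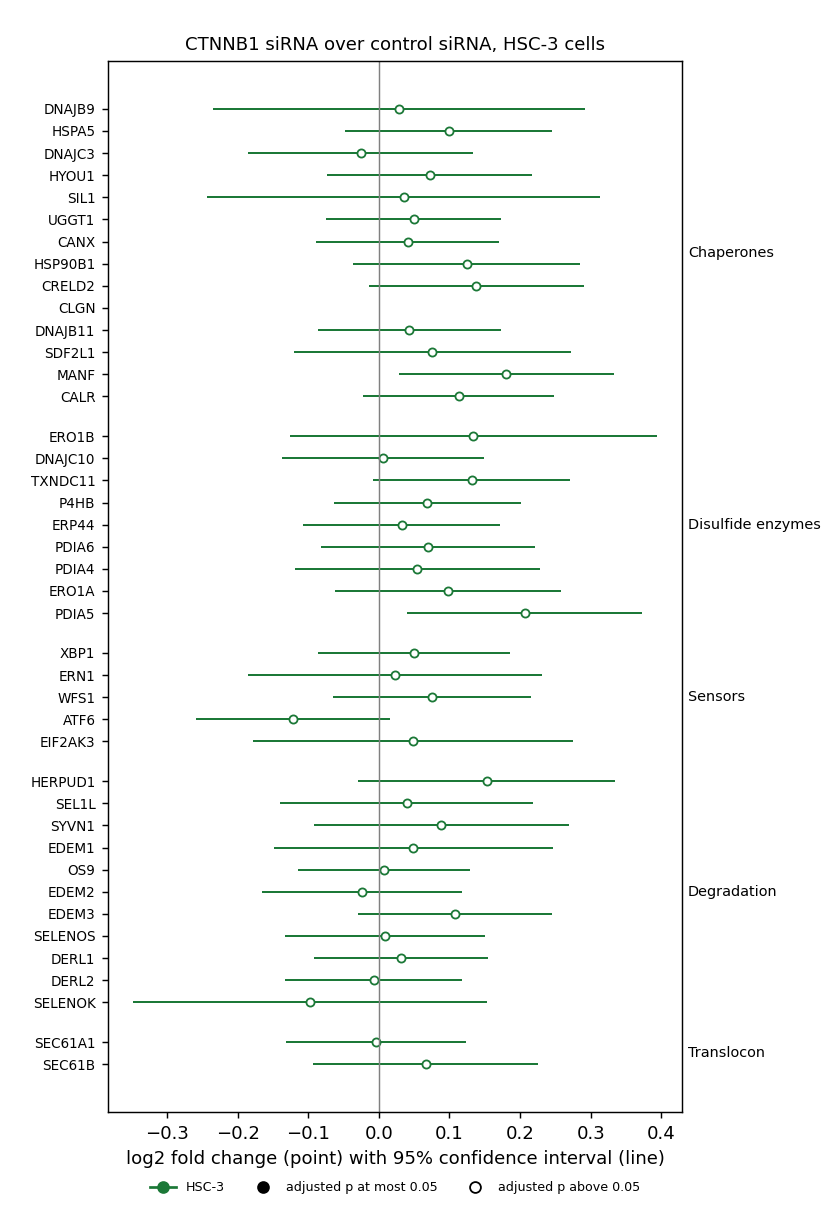
Log2 fold change on CTNNB1 siRNA over control siRNA in HSC-3 cells (point) with its 95% confidence interval (line), for the 40 tested members by role, with 3 arrays per group; CLGN was not tested and has no point. All points are open, since limma called no member, and all intervals lie between -0.35 and 0.39.

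Other genes of the same pathways were counted from lists. In HSC-3 cells 26.7% of all tested genes were higher on ICG-001 and 26.1% lower, and in CAL27 cells 6.91% and 7.4%. The PERK and ATF4 arm, which the EIF2AK3 sensor feeds along with other kinases, was higher on ICG-001 for 13 of 13 genes in HSC-3 cells (median log2 fold change 1.22) and for 9 of 13 in CAL27 cells (median 0.60). TRIB3, a pseudokinase induced by ATF4 and CHOP, had log2 fold changes of 2.50 and 1.55, and SESN2, a stress-induced sestrin, of 1.62 and 1.55, in HSC-3 and CAL27 cells. DDIT3, which encodes CHOP itself, had 2.46 in HSC-3 and 0.48 in CAL27 cells. In HSC-3 cells 11 of 19 further degradation genes were higher, led by the lectin ERLEC1 (0.88), and 2 lower. The lower ones, looked up after the count was seen, were VCP (-0.30), the ATPase that extracts proteins from the ER membrane, and FAF2 (-0.29), which helps to bring it there. Likewise 8 of 16 genes of COPII vesicles were higher and 2 lower, led by SEC24D (0.92). Of 26 glycosylation genes, 14 were higher and 4 lower, among them ALG2 (0.72), and of 19 genes of ER targeting and signal peptidase 7 were higher and 1 lower, with SEC11C at 1.38. Of 13 other ER disulfide enzymes 3 were higher and 6 lower, whereas of the 9 disulfide enzymes among the members 6 were higher and 0 lower. GPX8 (0.74) and SUMF1 (0.86) were among the higher ones and ERP27 (-1.765) among the lower ones. Among 20 cytosolic and mitochondrial chaperones, 5 were higher, such as HSPB1 (0.81), a share close to that of all genes, and 10 lower, such as the chaperonin subunits CCT2 (-0.58) and CCT5 (-0.55). In CAL27 cells 0 of these 20 and 0 of 16 COPII genes passed in either direction.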

How the data were processed

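RNA of 18 wells, 3 for each of 6 groups, was hybridised to Affymetrix Human Gene 2.0 ST arrays, and each array took its group from its title. The authors deposited log2 values from RMA (background correction, quantile normalization and summary of probes), run in affy 1.36.1 under R 2.15.1 per the labels, on probesets that each gather the probes of an Entrez gene. The values ran from 0.603 to 12.6. Normalization joined the 12 arrays with ICG-001 or DMSO, and separately the 6 siRNA arrays with others that are not used here. Levels were therefore not compared across these sets. RMA makes distributions equal, so a shift common to all genes would not be seen. The sources used here name no genome build. Symbols came from the platform annotation by probeset: of 23786 probesets 22458 had 1 symbol and 1328 none.

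Tests used limma 3.58.1 (R 4.3.3), per comparison with 6 arrays, and over 12 arrays for the difference between lines, on genes that exceeded the median of 1 array or more in a set. Variances were moderated over these genes, and p-values adjusted by Benjamini-Hochberg over them. Calls were made up to an adjusted p of 0.05, and strict calls up to 0.01 with a change of 1.5-fold or more. Intervals are 95% confidence intervals. The steps were tested on simulated data. Precision is limited by the number of arrays.

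The members, roles and other lists were chosen with earlier results of these data known. Every member may be named. By rule, values on every array were given for up to 6 members per direction with the smallest adjusted p and for the largest rise and fall of each role, and up to 3 genes were named of each other list. Values of further members, such as HSPA5 and DNAJB9 in CAL27 cells, were given after their values were seen, as were the 6 promoters shown. Promoters are RefSeq sequences on GRCh38.p14. Alternatives were a trend and robust prior, no intensity filter or one of 3 arrays, cyclic loess, equal array medians, a replicate block, 1 fit over 12 arrays, the stricter call, and leaving out each array. Moderating variances over all probesets, the order in the methods of the study, was added after seeing the data.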

Additional observations from a re-analysis of the deposited data

Results flagged for a closer look

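The response to ICG-001 differed between the lines, by the strict call of limma, for 15 of 41 tested members. By the same call, 6.83% of all tested genes had a higher difference and 5.4% a lower one. In log2 units the excess of the HSC-3 response over the CAL27 response was 0.766 for HSPA5, 0.665 for HYOU1, 1.57 for DNAJB9 and 0.617 for DNAJC3 among the chaperones. Among the disulfide enzymes it was 1.15 for ERO1B and 0.686 for TXNDC11. Of the sensors and stress factors, XBP1 had 0.986, EIF2AK3 0.657 and WFS1 0.672. Of the degradation genes, HERPUD1 had 1.04, SYVN1 0.763, SEL1L 0.701 and OS9 0.677, and the translocon gene SEC61A1 had 0.59. CLGN, with -1.79, was the only one of the 15 with the larger response in CAL27 cells, and it was tested through 1 array on which it was high. No cause of these differences was tested.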

How the results depend on the processing

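With the strict call, the members higher and lower on ICG-001 numbered 16 and 0 in HSC-3 cells and 2 and 0 in CAL27 cells. The higher differences between responses numbered 14. On DMSO, 2 members were higher and 4 lower in HSC-3 than in CAL27 cells by this call. The share of all tested genes was not computed there, so these counts cannot be set against genes in general. With a filter of 3 arrays CLGN was not tested and 0 differences were lower. Leaving out each array in turn gave 27 to 29 higher and 1 to 1 lower members in HSC-3 cells, 4 to 7 and 3 to 5 in CAL27 cells, 24 to 30 and 1 to 1 for the difference, 8 to 10 and 12 to 16 on DMSO, and 0 to 0 on siRNA. With the replicate number as a block, the counts were 28 and 1, 7 and 5, 27 and 1, 9 and 15, and 0 and 0. Same-numbered wells are not tied by the labels. Their deviations from the group means correlated at 0.05, -0.02 and -0.01 in the ICG-001 comparison of HSC-3 cells. In that of CAL27 cells they correlated at 0.18, 0.03 and 0.11, against at most 0.06 for wells of unlike number. The own number correlated best for 2 of 3 wells in CAL27 cells and on siRNA. It did so for 1 in HSC-3 cells on ICG-001 and for 0 between the lines on DMSO. With 3 pairs per comparison, these values cannot decide whether the numbers pair the wells. With variances moderated over all probesets the counts were 28 and 1, 7 and 5, 25 and 1, 9 and 14, and 0 and 0. Of the members called, 27 of 30 in HSC-3 cells, 7 of 14 in CAL27 cells, 25 of 28 for the difference and 20 of 25 on DMSO were called under every alternative that tested them, the strict call aside. The others were lost under 1 setting or more: SIL1, CANX and PDIA6 in HSC-3 cells, EIF2AK3, EDEM1, PDIA6, ATF6, MANF, SEL1L and HERPUD1 in CAL27 cells, ERP44, HSP90B1 and ERN1 for the difference, and SEC61A1, SEC61B, DNAJB9, CRELD2 and P4HB on DMSO. With the block, the adjusted p of EIF2AK3 in CAL27 cells was 0.0601 from limma. Near 0 on siRNA, the sign turned for SEC61A1 (-0.00393; 0.00885 with equal array medians, and between -0.0345 without CTNNB1 siRNA replicate 2 and 0.0175 without replicate 1) and for DNAJC3 (-0.0257; between -0.0732 without CTNNB1 siRNA replicate 2 and 0.0168 without replicate 3). The cause was not tested. Scaling moved the median of all genes by less than 0.1. With 3 wells per group the precision is that of the intervals, and members near or below the array median (CLGN, ERO1B, DERL3) gave low signals.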
